A study of Mus musculus with 6 samples.

Results

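Immediate early genes and the genes that feed back on mitogen-activated protein kinase (MAPK) signalling were examined in tumor cells sorted from MCRedAL mouse prostate tumors. The members were a named list of 37 genes, chosen with earlier results of these data known. A member was read from the brightest transcript cluster (the array's unit for a gene) that carried its symbol and no other, and 36 of the 37 had such a cluster, out of 30142 genes in all. Junb was not analysed here, because its cluster was annotated with a second gene. One group of tumors, tagged 7dPC in the titles, came from mice injected under the skin with degarelix, which lowers androgen by blocking the pituitary receptor for gonadotropin-releasing hormone, once tumors had reached about 500 mm2 (unit as in the labels). The other tumors, titled Intact and called castration sensitive by the submitters, were untreated. Each group had 3 tumors on 1 Affymetrix MTA 1.0 array each, and the labels call them biological replicates. In both groups the tumors were allografts of the same mCherry-expressing mouse prostate cancer line in male mice, so they model 1 line. Host strain, age and the time of sampling were not found in the labels. The sorted cells carried mCherry and lacked CD45, CD11b and the macrophage antigen encoded by Adgre1, straight into a lysis reagent, and RNA integrity numbers were at least 9.

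Immediate early genes are transcribed within minutes of a stimulus from factors that are already present in the cell. Growth factor receptors signal through Ras, Raf, MEK and ERK kinases to the serum response factor and its ETS partners, which act on Fos and Egr promoters, while stress kinases act on Jun and Atf3. Signalling is then limited by its own products: dual-specificity phosphatases remove phosphate from MAP kinases, Sprouty and Spred proteins act higher up, at the level of Ras and Raf, and Zfp36 proteins destroy the short-lived transcripts. Dissociation and sorting of a tissue are also known to raise many of these genes. The interval from dissection to lysis is not given in the sources used here, and its part in the results was not tested.

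Arrays of the same group correlated at 0.9948 to 0.9979 across genes and arrays of different groups at 0.9867 to 0.99. Untreated replicate 1 stood apart on the second principal component, at 24.9 against -11.2 to 5.12 on the other 5 arrays. Of 12 leukocyte and myeloid markers, 9 were highest among the untreated arrays on that array, and their summed linear level was 569 to 592 in degarelix samples and 559, 844 and 1552 in untreated samples, the last on untreated replicate 1. None of the 12 passed the test, and the markers that defined the sort, Ptprc, Itgam and Adgre1, lay at 3.72 to 5.30 in degarelix samples and 3.68 to 6.16 in untreated samples (log2), not above the array's background probe sets, which reached 6.93. The keratin gene Krt8, a marker of luminal epithelium, was at 11.83, 11.86 and 12.09 after degarelix and 11.25, 11.90 and 11.49 untreated, whereas Epcam, another epithelial marker, lay at 3.79 to 3.98 on all arrays, also not above background. In bulk RNA of sorted cells, a change in how many cells express a gene and a change in its RNA per cell cannot be told apart.

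Immediate early and MAPK feedback transcripts were higher after degarelix in part of the list, and none fell. Of 36 measured members 10 rose in limma at an adjusted p under 0.05, against 4.19% of all genes that rose and 7.51% that fell. They were the AP-1 genes Fos, Fosb and Jun, the zinc finger factor genes Egr2 and Klf6, the mRNA decay gene Zfp36l1 and the phosphatase genes Dusp1, Dusp4, Dusp6 and Dusp10. The median change over the 36 members was 0.24 on the log2 scale, degarelix minus untreated, beside 0.04 over all genes and -0.08 over the 9171 genes whose mean level was above the brightest background probe set. Values were above 0 for 29 members and below 0 for 7. The 3 degarelix arrays lay above the 3 untreated arrays without overlap for 18 members, beside 14.8% of all genes, and no member had the reverse order, beside 16.4% of all genes. Before adjustment 19 of the 36 had a p under 0.05 in limma, beside 26.2% of all genes and 4193 of the 9171 brighter genes. Of these brighter genes 7.76% rose and 16.1% fell at an adjusted p under 0.05. Without overlap, 1492 of them lay higher after degarelix and 3023 lower. Of the 36 members 8 had both means within the background range. The changes of the members were modest, up to 1.92-fold for Dusp6 and 1.85-fold for Dusp1.

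**Figure D1:**
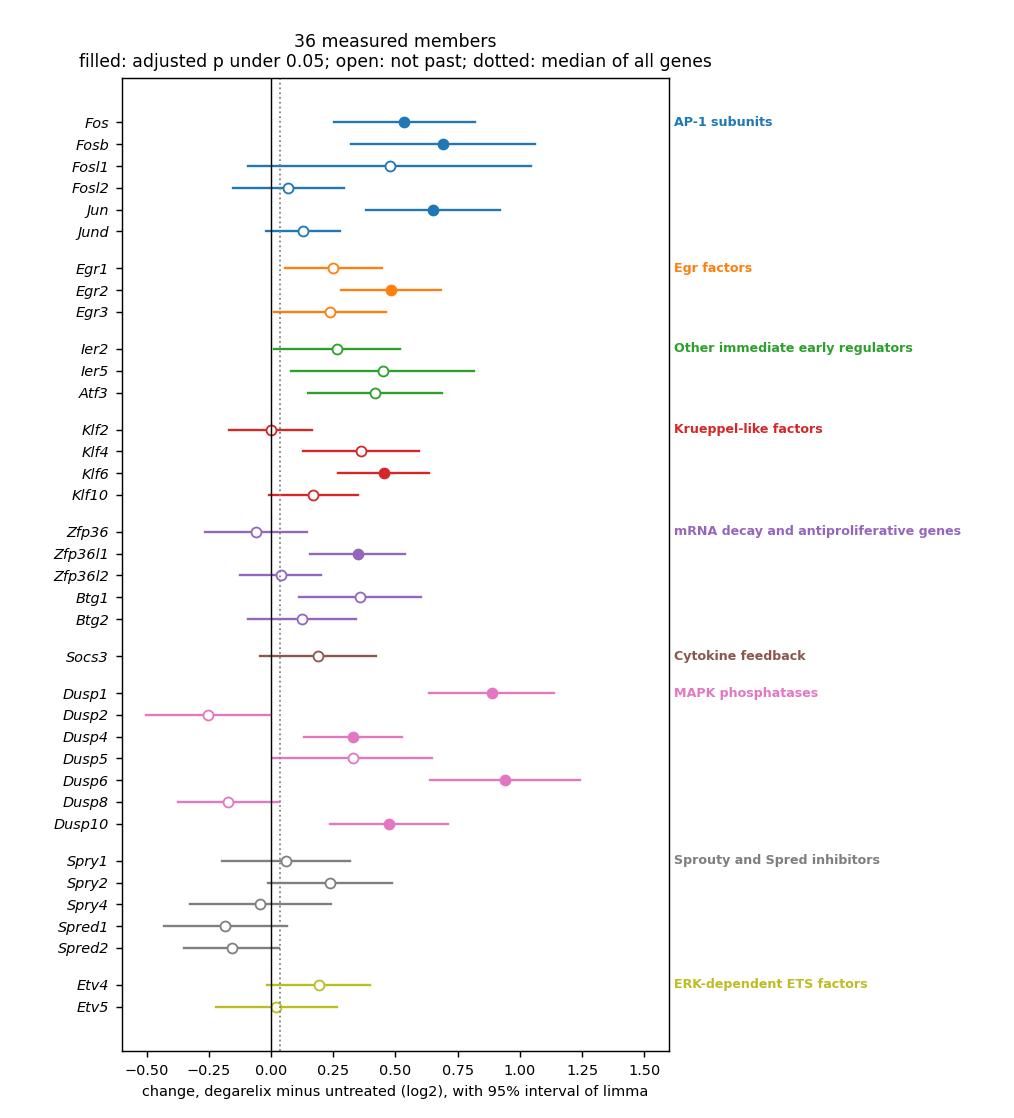
Change of each of the 36 measured members (degarelix minus untreated, log2; point) with its 95% interval from limma (line), grouped by role. Filled points passed an adjusted p of 0.05 and all 10 of them lie to the right of 0, while the intervals of the 5 Sprouty and Spred genes all include 0.

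The start regions of several members are shown because they carry, or share, the elements through which the pathway is known to act. The 250 bases before the annotated start were taken from a set of RefSeq start regions (GRCm38.p6) and searched on both strands. The set at hand held 28 of the 37 genes. Egr1, Egr3, Fosl1, Ier2, Klf10, Zfp36l2, Dusp4, Spry4 and Etv4 were not in it and were not searched. The CArG box, bound by the serum response factor, was present for Egr2, Dusp5 and Zfp36, 3 of 28 members, and in 1.47% of all 32851 start regions. The cyclic AMP response element TGACGTCA was present for Dusp1, Dusp8 and Btg2, also 3 of 28, and in 1.55% of all start regions. The AP-1 element was searched as TGANTCA, with any middle base. It matched for Zfp36l1 alone among the 28, with the letters TGATTCA, and in 6.75% of all start regions. Neither the Egr element GCGTGGGCG (0.536%) nor the ETS element CCGGAAGT (2.88%) was found for any of the 28. A member with more than 1 start region counted if any of them matched, whereas the percentages are shares of start regions. The 5 windows below are given 5′ to 3′ in the direction of the gene, with the matches in capitals. Egr2 (chr10:67537619-67537868, strand +) holds its CArG box 72 to 63 bases before the start. This is 1 of 5 annotated Egr2 starts. A CArG box was found for 4 of them, for 1 of these with other letters and at another place. Dusp5 (chr19:53528895-53529144, strand +) holds a pair at 82 to 73 and 72 to 63, and Zfp36 (chr7:28379229-28379478, strand -) holds a single CArG box at 58 to 49. Dusp1 (chr17:26508473-26508722, strand -) holds its response element at 143 to 136 bases before the start and Dusp8 (chr7:142095285-142095534, strand -) holds a pair at 107 to 100 and 63 to 56.
Egr2: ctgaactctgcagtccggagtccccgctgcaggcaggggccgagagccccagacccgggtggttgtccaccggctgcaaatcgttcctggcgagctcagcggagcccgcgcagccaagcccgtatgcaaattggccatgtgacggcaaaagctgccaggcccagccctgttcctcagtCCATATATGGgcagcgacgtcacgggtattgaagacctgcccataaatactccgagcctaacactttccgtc
Dusp5: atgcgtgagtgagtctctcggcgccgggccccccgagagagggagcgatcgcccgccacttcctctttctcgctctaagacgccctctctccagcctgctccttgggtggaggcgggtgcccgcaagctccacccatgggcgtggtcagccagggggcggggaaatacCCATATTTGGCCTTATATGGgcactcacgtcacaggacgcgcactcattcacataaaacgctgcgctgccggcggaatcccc
Zfp36: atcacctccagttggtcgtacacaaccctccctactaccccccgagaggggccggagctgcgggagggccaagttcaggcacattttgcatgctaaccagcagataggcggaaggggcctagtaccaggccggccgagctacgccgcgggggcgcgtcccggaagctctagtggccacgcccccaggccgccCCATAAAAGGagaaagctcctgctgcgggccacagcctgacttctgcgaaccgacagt
Dusp1: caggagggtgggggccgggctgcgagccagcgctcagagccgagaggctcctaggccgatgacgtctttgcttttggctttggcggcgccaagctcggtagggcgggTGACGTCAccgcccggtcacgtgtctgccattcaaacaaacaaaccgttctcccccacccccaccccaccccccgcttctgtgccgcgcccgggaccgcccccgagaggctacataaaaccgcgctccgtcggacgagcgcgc
Dusp8: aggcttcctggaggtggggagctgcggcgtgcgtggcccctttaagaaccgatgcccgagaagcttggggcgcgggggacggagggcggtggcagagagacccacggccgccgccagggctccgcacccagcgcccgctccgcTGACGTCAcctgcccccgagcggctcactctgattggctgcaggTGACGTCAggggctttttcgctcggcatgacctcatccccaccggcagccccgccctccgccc
A match describes these letters only, and elements farther than 250 bases before the start or with other letters were not searched. No match, as for Fos, therefore does not show that an element is absent. Genes with the same element differed in their transcripts. With a CArG box Egr2 rose, while the changes of Dusp5 (0.33) and Zfp36 (-0.06) did not pass the test. With the response element Dusp1 rose, while the changes of Dusp8 (-0.17) and Btg2 (0.13) did not pass.

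AP-1 is a dimer of a Fos and a Jun protein, and 3 of the 6 measured subunit genes rose. Fos, the prototype immediate early gene, stood at 9.89, 9.86 and 10.25 in degarelix tumors against 9.62, 9.48 and 9.29 in untreated tumors (log2). All 3 degarelix values were above all untreated values, and the difference was 0.54 (SE 0.12, limma adjusted p = 0.0265). Fosb, a close relative, stood at 11.84, 11.79 and 12.13 after degarelix and at 11.59, 10.93 and 11.17 untreated. Its groups did not overlap either, although untreated replicate 1 was close to the lowest degarelix value, and the difference was 0.69 (SE 0.16, limma adjusted p = 0.0279). Jun, the partner that stress kinases phosphorylate, stood at 10.46, 10.61 and 10.82 after degarelix and at 9.80, 10.15 and 9.99 untreated. The rise of Jun was 0.65 (SE 0.12, limma adjusted p = 0.0103).

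The other subunits did not pass the test. Fosl1, which encodes the late, ERK-stabilised subunit Fra-1, was at 9.20, 9.13 and 9.19 in degarelix tumors and at 8.02, 8.85 and 9.21 in untreated tumors. Its degarelix values lay close together, untreated replicate 1 was low, and the change of 0.48 had an interval of -0.09 to 1.05 (limma adjusted p = 0.266). Fosl2, which encodes Fra-2, had a change of 0.07 and Jund, a constitutively expressed Jun relative, one of 0.13 (limma adjusted p = 0.669 and 0.254).

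**Figure D2:**
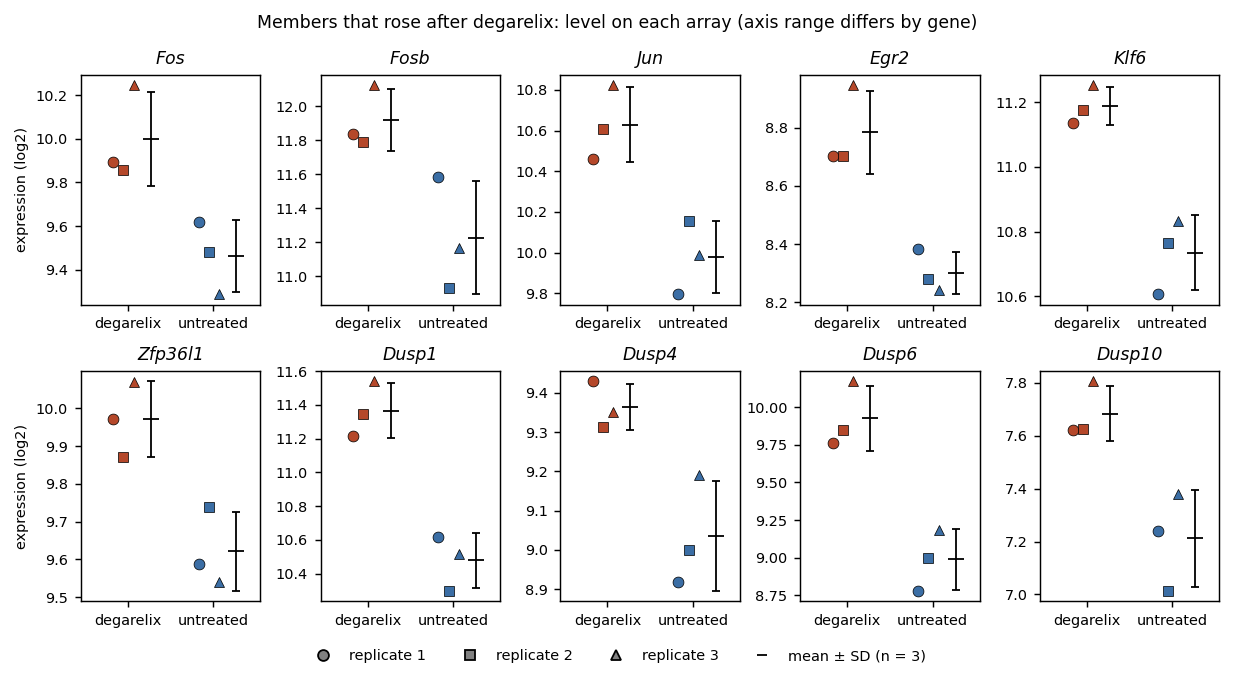
Level of the 10 members that rose (log2) on each array, degarelix on the left and untreated on the right of each panel; symbols mark the replicate and bars the mean ± SD (n = 3). In every panel the 3 degarelix values lie above the 3 untreated values, and in 9 of the 10 the highest value is that of degarelix replicate 3.

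Egr proteins are zinc finger factors induced through the same serum response route. Egr2 stood at 8.70, 8.70 and 8.95 after degarelix against 8.38, 8.28 and 8.24 untreated. Its rise of 0.48 (SE 0.09, limma adjusted p = 0.0104) was larger than the spread in either group (SD 0.14 and 0.07). Egr1, the best known of the family, was at 8.29, 8.34 and 8.55 in degarelix tumors and at 8.16, 8.19 and 8.07 in untreated tumors, without overlap, but its change of 0.25 (SE 0.09) did not pass (limma adjusted p = 0.1). Egr3 had a change of 0.24 (limma adjusted p = 0.172), and neither mean was above the brightest background probe set. The other clusters annotated to Egr3 gave 0.19 and 0.29.

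Among the remaining immediate early regulators none of 3 passed, although the values of all 3 were above 0. Atf3, a stress-induced factor of the ATF family, was at 9.04, 8.99 and 9.29 after degarelix against 8.87, 8.72 and 8.48 untreated, a change of 0.42 (SE 0.12, limma adjusted p = 0.0548). Ier5, a stress-induced regulator of heat shock factor activity, was at 7.51, 7.71 and 7.72 after degarelix and at 6.80, 7.32 and 7.48 untreated, with untreated replicate 1 the lowest by far. Neither gene's groups overlapped, and the change of Ier5 was 0.45 (SE 0.16, limma adjusted p = 0.117). Ier2, a small nuclear immediate early protein gene, had a change of 0.27 (limma adjusted p = 0.171), with overlap of the groups.

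Of the 4 Krüppel-like factor genes 1 rose. Klf6, which is induced by injury and growth signals, stood at 11.14, 11.18 and 11.25 in degarelix tumors against 10.61, 10.76 and 10.83 in untreated tumors. The rise of 0.45 (SE 0.08, limma adjusted p = 0.00896) was several times the spread within each group (SD 0.06 and 0.12). Klf4, an epithelial differentiation factor, was at 9.42, 9.34 and 9.69 after degarelix and at 9.17, 9.02 and 9.17 untreated, and its change of 0.36 (SE 0.10) narrowly missed the threshold (limma adjusted p = 0.0549). Klf10, induced by TGF-beta, had a change of 0.17 (limma adjusted p = 0.215). Klf2, better known from endothelial cells, was at 7.72 ± 0.02 after degarelix and 7.72 ± 0.10 untreated (mean ± SD, n = 3 each).

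Genes that end the response by mRNA decay or growth arrest differed among themselves. Zfp36l1, which encodes a protein that binds AU-rich elements and recruits deadenylases, stood at 9.97, 9.87 and 10.07 after degarelix and at 9.59, 9.74 and 9.54 untreated, a rise of 0.35 (SE 0.08, limma adjusted p = 0.0315). Its relatives Zfp36, which encodes tristetraprolin, and Zfp36l2 had changes of -0.06 and 0.04 (limma adjusted p = 0.694 and 0.755), with intervals that ended at 0.14 and 0.20. The antiproliferative gene Btg1 was at 7.11, 7.31 and 7.43 after degarelix and at 6.81, 6.86 and 7.10 untreated, groups that nearly touched. The change of Btg1 was 0.36 (SE 0.11, limma adjusted p = 0.0683). That of Btg2, a p53-inducible relative, was 0.13 (limma adjusted p = 0.429), and that of Socs3, which limits cytokine signalling through JAK and STAT proteins, was 0.19 (limma adjusted p = 0.281) at levels within the background range.

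The feedback genes were read by type. Of the 7 MAPK phosphatase genes 4 rose and of the 5 Sprouty and Spred genes none did, beside 4.19% of all genes. With that share, a count of 0 among 5 genes says little, and 3 of the 5 had both means within the background range. The difference between the types was not tested. Dusp6, which encodes the cytoplasmic phosphatase specific for ERK and is itself induced by ERK, stood at 9.76, 9.85 and 10.17 in degarelix tumors against 8.78, 9.00 and 9.18 in untreated tumors. Its groups were separated by more than the range within either group, and the rise of 0.94 (SE 0.13, limma adjusted p = 0.00306) was the largest of the 36 members. Dusp1, which encodes a nuclear phosphatase that acts on stress kinases as well as ERK, stood at 11.21, 11.34 and 11.54 after degarelix and at 10.62, 10.30 and 10.52 untreated. The rise of Dusp1 was 0.89 (SE 0.11, limma adjusted p = 0.00167), again with a clear gap between the groups.

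Smaller rises were measured for a pair of other phosphatase genes. Dusp10, whose product prefers the stress kinases, stood at 7.62, 7.63 and 7.81 after degarelix and at 7.24, 7.02 and 7.38 untreated, a rise of 0.47 (SE 0.10, limma adjusted p = 0.0225). Dusp4, which encodes a nuclear ERK and stress kinase phosphatase, stood at 9.43, 9.31 and 9.35 after degarelix and at 8.92, 9.00 and 9.19 untreated, a rise of 0.33 (SE 0.09, limma adjusted p = 0.0421). Untreated replicate 3 was the nearest to the degarelix values for both genes. Dusp5, a nuclear ERK phosphatase gene, was at 7.36, 7.07 and 7.38 after degarelix and at 7.24, 6.73 and 6.86 untreated. Its groups overlapped, and the change of 0.33 (SE 0.14) did not pass (limma adjusted p = 0.18). Dusp2, known chiefly from activated leukocytes, and Dusp8, which acts on stress kinases, had values below 0, at -0.25 and -0.17 (limma adjusted p = 0.183 and 0.263). Both Dusp2 means lay within the background range. Its highest value, 6.91, was on untreated replicate 1, the array with the highest leukocyte markers, whose part in it was not tested.

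Sprouty and Spred proteins interrupt signalling between receptors and Raf. Spry2 had a change of 0.24 (95% interval -0.01 to 0.48), Spry1 of 0.06 (-0.20 to 0.32) and Spry4 of -0.04 (-0.33 to 0.24), all with means within the background range, where RMA compresses changes. Spred1 and Spred2 were brighter and had changes of -0.18 (-0.43 to 0.06) and -0.16 (-0.35 to 0.03). No interval of these 5 genes reached 0.64, where the intervals of Dusp1 and Dusp6, the largest rises, began. The intervals of Spry1, Spry2 and Spry4 overlapped those of Dusp4 (0.13 to 0.52) and Dusp10 (0.235 to 0.71). Those of Spred1 and Spred2 ended below both. The ETS factor genes Etv4 and Etv5, also regarded as ERK outputs, had changes of 0.19 and 0.02 (limma adjusted p = 0.226 and 0.912), likewise within the background range.

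The AP-1 and Egr genes were then set beside the feedback genes, class by class. Of 9 measured AP-1 and Egr genes 4 rose, with a median change of 0.48, beside medians of 0.33 for the 7 phosphatase genes and -0.04 for the 5 Sprouty and Spred genes. The mean deviation of the 9 AP-1 and Egr genes from their untreated means was 0.34, 0.33 and 0.50 on the degarelix arrays and within 0.02 of 0 on the untreated arrays. For the phosphatase genes it was 0.34, 0.29 and 0.46 on the degarelix arrays and -0.10 to 0.07 on the untreated arrays. For the Sprouty and Spred genes it was -0.01, -0.11 and 0.06 on the degarelix arrays and -0.10 to 0.11 on the untreated arrays, which overlap. Deviations on the untreated arrays average 0 by construction, and opposite deviations of single genes cancel in a class mean. On untreated replicate 1, for example, Fosb was at 11.59 and Fosl1 at 8.02, against untreated means of 11.23 and 8.69. The class medians and means describe small classes, and the differences between classes were not tested.

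Degarelix replicate 3 was the highest of the degarelix arrays for 24 of 36 members (66.7%), beside 32.9% of all genes and 61.6% of the genes brighter than the background. It was also the highest of them for all 7 measured fibroblast markers, whose summed linear level was 2813, 2380 and 3845 in degarelix samples and 2414, 2286 and 3009 in untreated samples. Of these markers Dcn and Fbln1, which encode matrix proteins, rose by 1.46 and 1.07 (limma adjusted p = 0.0147 and 6.1e-04), whereas Postn, another matrix protein gene, had a change of -0.68 without overlap (limma adjusted p = 0.0517), and the list median was 0.30. The mean deviation of the 7 markers was 0.42, 0.22 and 0.97 on the degarelix arrays and -0.15, -0.13 and 0.29 on the untreated arrays. The part of fibroblast RNA in the members' rises was not tested. Of 7 endothelial markers none passed (median change -0.19, Pecam1 at -0.26). Of 8 smooth muscle and pericyte markers Rgs5 fell by 0.73 (limma adjusted p = 0.0072) with both means within the background range. The change of Acta2 was -0.37 (limma adjusted p = 0.15), 4 of the 8 values were above 0 and the list median was -0.0018. Of 6 epithelial markers only Krt19 passed, with a rise of 1.88 (limma adjusted p = 8.85e-05). The median of that list was 0.15, and 3 of the 6 had both means within the background range. Beside these marker calls, 4.19% of all genes rose and 7.51% fell. Of genes brighter than the background 7.76% rose and 16.1% fell.

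Of the 10 rises, those of Jun, Egr2, Klf6, Dusp1 and Dusp6 passed under all 14 alternatives, with limma adjusted p of at most 0.0434, 0.0436, 0.0462, 0.00905 and 0.0182. The other 5 each lost the call under 5 to 8 of the 14, though the value stayed above 0 throughout. Centring each array on its median ended the calls of Fos (adjusted p = 0.0726), Fosb (0.0608), Zfp36l1 (0.102), Dusp4 (0.126) and Dusp10 (0.074), and so did leaving out degarelix replicate 1 (0.063, 0.0791, 0.102, 0.151 and 0.0632, in the same order of genes). An intensity trend with robust variances ended that of Dusp4 (0.0519). With degarelix replicate 2 left out, adjusted p values were 0.0554 for Fosb, 0.0548 for Zfp36l1, 0.0988 for Dusp4 and 0.0583 for Dusp10, and with degarelix replicate 3 left out they were 0.0737, 0.0634, 0.0668 and 0.057 for these 4. Among untreated arrays, leaving out replicate 1 ended the calls of Zfp36l1 (0.0522) and Dusp4 (0.0721). Leaving out replicate 2 ended those of Fos (0.0668), Fosb (0.0708), Dusp4 (0.129) and Dusp10 (0.0628), and leaving out replicate 3 those of Fos (0.0894), Fosb (0.0884) and Zfp36l1 (0.112). Over the alternatives the adjusted p ran from 0.00608 to 0.0894 for Fos, 0.00268 to 0.0884 for Fosb, 0.0124 to 0.112 for Zfp36l1, 0.00971 to 0.151 for Dusp4 and 0.00643 to 0.074 for Dusp10.

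**Figure D3:**
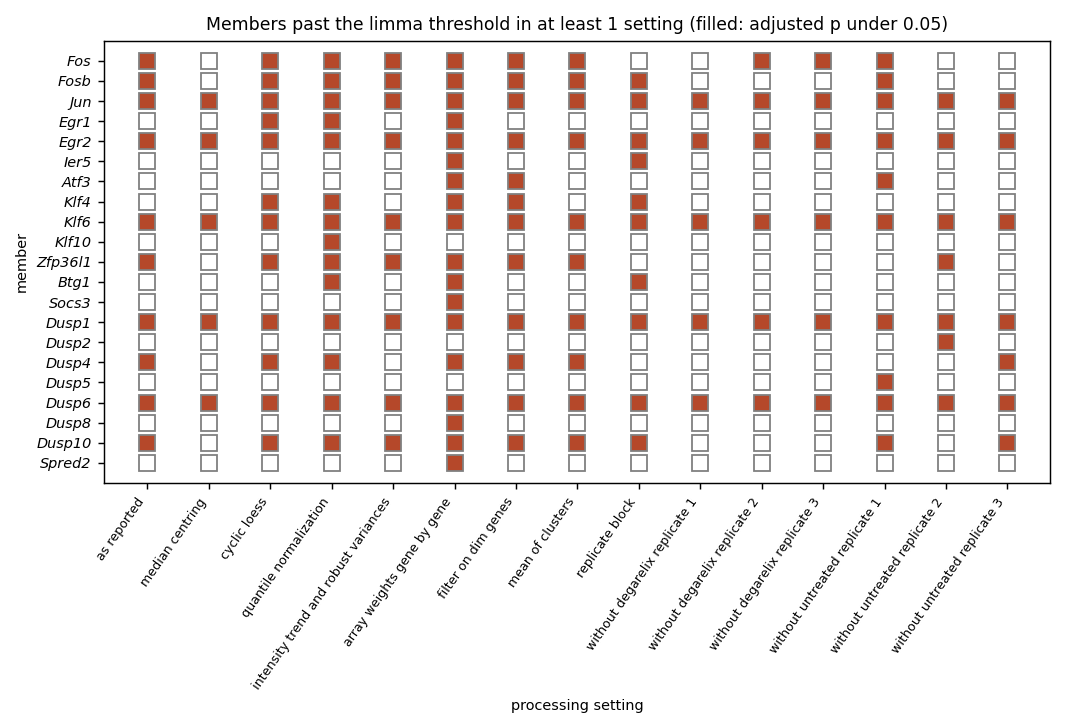
The 21 members that passed limma's threshold under at least 1 of 15 settings (rows) and the settings (columns); a filled square is an adjusted p under 0.05. Jun, Egr2, Klf6, Dusp1 and Dusp6 are filled in every column, and Spred2 is filled in 1 column, the one with array weights.

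The kinases and adaptors that carry the signal were read from a list of their own. Of 28 listed cascade genes 21 were measured. Of these 1 fell (4.76%, beside 7.51% of all genes and 16.1% of genes brighter than the background) and none rose. The median change was -0.11, beside -0.08 over all genes brighter than the background. The one that fell was Sos1, which encodes an exchange factor that activates Ras, at -0.36 (SE 0.08, limma adjusted p = 0.0248). It lost its call without degarelix replicate 1 (0.0896) or 2 (0.093) or untreated replicate 2 (0.067) or 3 (0.0796), in a range of 0.00268 to 0.093. Of 10 factors that act on immediate early promoters only Srf, the serum response factor gene, rose, by 0.52 (SE 0.14). Its adjusted p of 0.0499 in limma was just under the threshold and ranged from 0.0125 to 0.151, above 0.05 under 6 of the 14 alternatives, among them median centring (0.129), leaving out any 1 degarelix array (0.151, 0.105 and 0.101) and leaving out untreated replicate 3 (0.059).

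Immediate early genes outside the member list rose in part. This list, too, was chosen with earlier results of these data known. Of 34 measured 13 rose and 2 fell (median change 0.27). The shares were 4.19% and 7.51% of all genes and 7.76% and 16.1% of genes brighter than the background. With the smallest adjusted p in limma were Cebpd, a C/EBP factor gene of acute inflammation, at 1.15 (SE 0.13), the circadian repressor gene Bhlhe40 at 0.67 (SE 0.09), the matricellular protein gene Ccn1 at 0.45 (SE 0.07), the stress response gene Ier3 at 0.60 (SE 0.09, both means within the background range), the kinase gene Plk3 at 0.52 (SE 0.08) and the EGF receptor ligand gene Hbegf at 0.68 (SE 0.13). Their adjusted p was 9.13e-04 to 0.0124, and that of Hbegf was 0.0547 without degarelix replicate 1 (0.00255 to 0.0547 over its alternatives). The fallen pair was Id2, an inhibitor of differentiation factors, and Tiparp, a target of the aryl hydrocarbon receptor, at -0.50 and -0.46. They were named after their values were seen, and both calls ended without degarelix replicate 1 (0.0702 and 0.072) or 2 (0.0656 and 0.0794) or untreated replicate 2 (0.0601 and 0.0697) or 3 (0.0542 and 0.0617), over ranges of 9.42e-04 to 0.0702 and 0.00132 to 0.0794. This count was 6 without degarelix replicate 1 and 9 without degarelix replicate 2 or untreated replicate 3.

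In the lists of further inhibitors and of ERK outputs 1 gene each rose, which was 7.69% and 12.5% of those measured. The share was 4.19% of all genes and 7.76% of genes brighter than the background. Of 13 other phosphatase and Ras pathway inhibitor genes Rasa2, a Ras GTPase-activating protein gene, rose by 0.39 (SE 0.08, limma adjusted p = 0.0171) with both means within the background range, and none fell (median 0.11). That call ended with median centring (0.0786) and without degarelix replicate 1 (0.0507) or 2 (0.053) or untreated replicate 2 (0.0539), in a range of 0.00447 to 0.0786. Of 8 measured ERK output genes the cytokine gene Lif rose by 0.51 (SE 0.08, limma adjusted p = 0.00469), none fell and the median was 0.23. Of these 8 genes 4 had both means within the background range. Their summed linear level was 5290, 5244 and 5453 in degarelix samples and 2986, 4860 and 5131 in untreated samples, lowest on untreated replicate 1.

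Heat shock genes are also induced by tissue handling. Of 10 measured none rose and 2 fell (20%), beside 4.19% and 7.51% of all genes and 7.76% and 16.1% of genes brighter than the background. Only 1 of the 10 had both means within the background range. The list median was 0.12. The fallen genes were the mitochondrial chaperonin genes Hspd1 and Hspe1, at -0.45 (SE 0.10) and -0.27 (SE 0.07). Their limma adjusted p was 0.0196 and 0.0483. Both calls ended without degarelix replicate 1 (0.0791 and 0.166) or 2 (0.0543 and 0.111) or untreated replicate 2 (0.0635 and 0.172) or 3 (0.0678 and 0.135), and that of Hspe1 also with median centring (0.0591), cyclic loess (0.138), quantile normalization (0.0682), an intensity trend (0.0637) or without degarelix replicate 3 (0.0609). Over the alternatives the adjusted p ran from 0.00189 to 0.0791 for Hspd1 and 0.0109 to 0.172 for Hspe1. Of the 10 heat shock values 6 were above 0 and 4 below. Those above 0 included Dnajb1 at 0.46 (limma adjusted p = 0.128), Hsph1 at 0.30, Hspa1a at 0.21, and Bag3 and Hspb1 at 0.19. None of them passed, and the part of handling in the members' rises was not tested. In the same tumors all 11 measured genes of the G1/S and mitosis list fell, with a median of -1.81, on the arrays on which the 10 members rose. Among them the proliferation marker gene Mki67 was at -3.00, the cyclin genes Ccna2 and Ccne2 at -2.55 and -1.83, the ribonucleotide reductase gene Rrm2 at -2.03, and the mitotic kinase genes Bub1 and Aurka at -1.56 (both means within the background range) and -1.20.

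**Figure D4:**
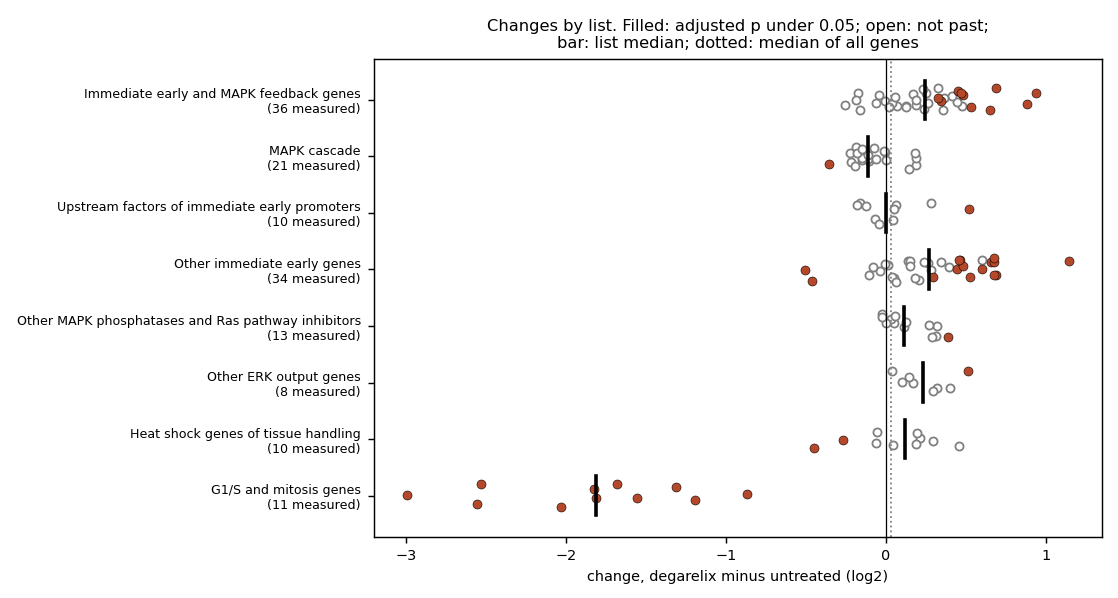
Change of every measured gene (degarelix minus untreated, log2) in the member list and 7 related lists; filled points passed an adjusted p of 0.05, bars mark list medians and the dotted line the median of all genes (0.04). Member and other immediate early genes lie mostly right of 0, cascade genes mostly left of it, and division genes between -3.00 and -0.87.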

How the data were processed

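RNA of 6 sorted tumor cell samples was hybridised to 1 array each. The authors deposited log2 expression values, made with Affymetrix Expression Console and RMA per the submitters' processing notes. No version or setting is given there. RMA values of dim genes understate changes, and the medians of the arrays ran from 4.70 to 4.84. Of 72688 rows, 6732 control rows were left out. Of 65956 transcript clusters 30604 had 1 gene symbol in the platform annotation, 2146 several and the rest none. Symbols were updated through Entrez identifiers (RefSeq, GRCm38.p6), which changed 827. The brightest cluster of each of 30142 genes was tested, with no filter on dim genes.

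The degarelix and untreated arrays were compared by limma 3.58.1 in R 4.3.3 (lmFit, eBayes), two-sided; p-values were adjusted over the whole table by Benjamini-Hochberg, with a threshold of 0.05. Changes carry moderated SEs. In data simulated for this comparison over 30142 genes, limma called 88 of 100 genes changed by a log2 of 1, 49 of 100 changed by 0.5 and 6 of 29942 unchanged ones. The simulated data held far fewer changed genes than the 3526 called in the real data, so these rates may not carry over. The number of arrays limits the precision. Members and lists were chosen with earlier results of these data known. All members were named, with full values for those that passed or that changed by at least 0.3 without overlap, as were up to 6 called genes per related list and up to 4 per marker list, plus 8 defining markers. Lyz2, Tyrobp and Cd68 were named for their level, after their values were seen. Alternatives were median centring, cyclic loess or quantile scaling, a variance trend, array weights, leaving out dim genes, averaging clusters of a gene, a replicate block, and each array left out in turn. Tables and figures used Python 3.11.15, pandas 2.3.3 and matplotlib 3.10.9.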

Additional observations from a re-analysis of the deposited data

How the results depend on the processing

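With 3 arrays per group, dim genes and small changes limit what can be seen. Array weights, computed gene by gene, had the strongest effect. They gave 9912 changed genes (5052 higher, 4860 lower, against 1262 and 2264 as reported), 18 members, 1 Sprouty or Spred gene and 7 cascade, 3 promoter factor, 4 other inhibitor and 3 ERK output genes. The degarelix weights were 0.928, 3.42 and 0.387 and the untreated weights 0.445, 1.67 and 1.10. Median centring gave 691 genes higher, 5 members, 2 AP-1 and Egr genes, 2 phosphatase genes, 1 heat shock gene and 0 promoter factor and other inhibitor genes. Cyclic loess gave 2 genes each for the cascade, promoter factor and other inhibitor lists, quantile normalization 2 each for the last 2, the filter on dim genes 2 other inhibitors, and an intensity trend with robust variances 1 heat shock gene. Leaving out 1 array gave 1590 to 4700 changed genes (624 to 1651 higher, 966 to 3253 lower), 5 to 10 members, 2 to 4 AP-1 and Egr genes and 2 to 4 phosphatase genes. It gave 0 to 2 cascade and promoter factor genes, 6 to 18 other immediate early genes, 0 to 3 other inhibitors and 0 to 2 heat shock genes. Same-numbered arrays deviated together weakly (r = 0.163, 0.04 and 0.196 across genes). Since 1 of the 3 was near 0 the numbers were not taken as pairs, although each array correlated best with its own number, a hint of pairing from the data. The replicate block gave 3806 changed genes and 10 members, 7 of them shared, with Fos (0.0562), Zfp36l1 (0.0589), Dusp4 (0.0563) and Srf (0.0504) above the threshold and Ier5 (0.0418), Klf4 (0.0353) and Btg1 (0.0241) under it. Of 504 member values under alternatives 31 lost and 22 gained a call, and 19 of 6 uncalled members changed sign. These were Klf2 (0.054 with cyclic loess, 0.0666 with quantile normalization, 0.0168 with array weights, -0.0576 to 0.0371 without 1 array), Etv5 (-0.0256 with median centring, -0.0196 with cyclic loess, -0.0037 with quantile normalization, -0.0759 to 0.14 without 1 array), Zfp36l2 (-0.0088 with median centring, -0.0004 to 0.0706 without 1 array), Spry4 (0.0021 with array weights, -0.19 to 0.0666 without 1 array), Zfp36 (-0.12 to 0.0211) and Spry1 (-0.0101 to 0.17). The causes were not tested.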
